A study of Homo sapiens with 12 samples.

Results

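The 10 genes described here carry long-chain fatty acids into mitochondria, oxidise them there, or switch that program on, and they were given by name: ACSL1, CPT1A, SLC25A20, CPT2, ACADVL, ACADM, HADHA, HADHB, ETFDH and PPARA. All 10 were measured, out of 19775 genes on the array. They were followed in 4 groups of 3 arrays from established human multiple myeloma lines, a cancer of plasma cells, both carrying the t(4;14) translocation. KMS-11/Cfz is KMS-11 selected stepwise with the proteasome inhibitor carfilzomib until it grew in 12 nM, and parental KMS-11 is its unselected counterpart. KMS-34/Cfz and parental KMS-34 form the other pair. The resistant cells had been kept without carfilzomib for 1 week before RNA was taken, and the labels give 4% serum for all 4 groups, where the study's methods state a different percentage. Each line has 1 resistant derivative, so what selection did and what else set the cultures apart cannot be told apart. Nothing in the sources used here says whether the 3 arrays of a group came from separate cultures, and p-values therefore measure the spread between arrays, which may be technical.

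Fatty acids are first joined to coenzyme A by acyl-CoA synthetases such as ACSL1. CPT1A, on the outer mitochondrial membrane, swaps coenzyme A for carnitine, the carrier SLC25A20 takes the acylcarnitine across the inner membrane, and CPT2 restores the acyl-CoA inside. Acyl-CoA dehydrogenases then open each round of shortening, the trifunctional protein made of HADHA and HADHB completes it for long chains, and ETFDH passes the electrons to ubiquinone. PPARA is a nuclear receptor for fatty acids that switches on many of these genes, chiefly known from liver, heart and muscle.

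Values are log2 signals centred on each probe set, so 0 marks a reference point of that probe set and the values carry no expression level. They can be compared between arrays for a gene, but not between genes, and the labelled cell type could not be checked as a level. Arrays of a group correlated with each other at r = 0.759 to 0.949 over all probe sets. KMS-34/Cfz replicate 1 stood apart, with r = 0.759 and 0.811 to the other arrays of its group and the widest interquartile range, 0.34. Among the listed markers of cells that a culture should lack, none of 8 T and NK cell genes and none of 6 stromal genes passed the threshold within either line in limma's fit, nor at an unadjusted p under 0.05. Of 5 monocyte genes, CD14 was lower in KMS-34/Cfz. Of 13 genes listed as plasma cell markers, 2 were lower in KMS-11/Cfz, and 1 was higher and 4 were lower in KMS-34/Cfz. The list includes NSD2 and FGFR3, which the paper describes as aberrantly expressed through the translocation, and MS4A1, a B cell gene. Its counts and mean are therefore not a measure of plasma cell identity alone. The mean centred value of these 13 genes ran -0.31 to -0.28 over the KMS-11/Cfz arrays, against -0.21 to -0.16 over KMS-11. It ran -0.21 to -0.15 over KMS-34/Cfz, against -0.13 to -0.062 over KMS-34. Single genes of the list moved unevenly. SLAMF7 had the largest fall, -0.97 within the KMS-11 line and -0.995 within the KMS-34 line. The largest rises were those of CD38 for KMS-11/Cfz (0.44) and JCHAIN for KMS-34/Cfz (0.71). Of the 13 changes, 3 were above 0 for KMS-11/Cfz, with a median of -0.061. For KMS-34/Cfz 5 were above 0, with a median of -0.052. The part of these marker shifts in the results below was not tested.

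The promoters of the members with a changed transcript, and of HADHB, which shares most of its window with HADHA, are shown because the motif counts given later refer to them. Of the 5 listed ACSL1 starts, the outermost is shown. Each run is the 250 bases before a transcription start in RefSeq (GRCh38.p14), read 5′ to 3′ on the strand of the gene, with GC boxes (CCGCCC on either strand) in capitals. ACADVL is on the plus strand of chromosome 17 (17:7217125-7225266) and has 2 listed starts, the first at the outer end of the gene and the second inside it. SLC25A20 is on the minus strand of chromosome 3 (3:48856926-48898882), ACSL1 on the minus strand of chromosome 4 (4:184755595-184826594), CPT2 on the plus strand of chromosome 1 (1:53196824-53214197) and HADHB on the plus strand of chromosome 2 (2:26244939-26290465). The other members are HADHA (2:26190635-26244632), ACADM (1:75724709-75763679), ETFDH (4:158672296-158709623), CPT1A (11:68754620-68844277) and PPARA (22:46150526-46243756).
ACADVL, chr17:7216875-7217124: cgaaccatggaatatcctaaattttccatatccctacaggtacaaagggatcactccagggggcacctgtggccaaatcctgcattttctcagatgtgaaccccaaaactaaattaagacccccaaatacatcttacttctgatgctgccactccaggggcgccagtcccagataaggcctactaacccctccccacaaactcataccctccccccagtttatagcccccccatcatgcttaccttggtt
ACADVL, chr17:7219688-7219937: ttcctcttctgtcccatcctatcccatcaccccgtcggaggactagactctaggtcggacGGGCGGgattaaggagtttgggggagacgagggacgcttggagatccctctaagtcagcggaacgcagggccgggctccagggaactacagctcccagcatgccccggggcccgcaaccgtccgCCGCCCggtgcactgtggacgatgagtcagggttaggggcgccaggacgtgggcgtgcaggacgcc
SLC25A20, chr3:48898883-48899132: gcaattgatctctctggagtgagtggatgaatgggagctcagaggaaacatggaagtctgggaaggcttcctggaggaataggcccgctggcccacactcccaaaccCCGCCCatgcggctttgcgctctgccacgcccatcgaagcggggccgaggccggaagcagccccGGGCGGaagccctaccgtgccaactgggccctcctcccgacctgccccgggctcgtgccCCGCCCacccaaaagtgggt
ACSL1, chr4:184825969-184826218: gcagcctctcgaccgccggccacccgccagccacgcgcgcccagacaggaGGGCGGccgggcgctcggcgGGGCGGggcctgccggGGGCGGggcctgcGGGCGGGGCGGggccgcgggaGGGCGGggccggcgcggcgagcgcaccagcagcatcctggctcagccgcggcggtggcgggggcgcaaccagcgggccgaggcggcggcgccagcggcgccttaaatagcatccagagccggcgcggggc
CPT2, chr1:53196574-53196823: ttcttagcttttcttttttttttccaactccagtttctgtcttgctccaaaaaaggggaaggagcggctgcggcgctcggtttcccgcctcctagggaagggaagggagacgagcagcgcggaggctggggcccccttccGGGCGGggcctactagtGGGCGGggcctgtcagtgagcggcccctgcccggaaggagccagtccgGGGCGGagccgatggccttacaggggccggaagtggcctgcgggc
HADHB, chr2:26244689-26244938: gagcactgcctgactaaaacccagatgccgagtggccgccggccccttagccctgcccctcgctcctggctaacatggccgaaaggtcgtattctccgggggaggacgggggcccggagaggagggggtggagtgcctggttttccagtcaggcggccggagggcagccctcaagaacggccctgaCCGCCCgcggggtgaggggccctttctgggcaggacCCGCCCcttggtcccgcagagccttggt
The outer ACADVL start had no GC box and a GC content of 49.6%, while the inner one had 2 boxes and 65.6%. The ACSL1 window held 6 boxes and 83.6% GC, and those of SLC25A20 and CPT2 held 3 each.

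Whether acquired carfilzomib resistance moved these genes was asked within each line. In KMS-11/Cfz, 3 of the 10 passed an adjusted p of 0.05, all higher than in parental KMS-11: ACADVL, ACSL1 and SLC25A20. In KMS-34/Cfz, CPT2 was higher and ACADVL was lower than in parental KMS-34, and the other 8 did not pass. ACADVL passed in both lines, in opposite directions. Over all genes, 1.63% were called higher and 1.94% lower in KMS-11/Cfz, and 5.4% higher and 4.69% lower in KMS-34/Cfz, so that 3 of 10 and 1 of 10 higher members stand beside those shares. On the log2 scale the members had a median change of 0.078 in KMS-11/Cfz, while in KMS-34/Cfz it was -0.046, against 0.0025 and -0.010 over all genes. After cyclic loess scaling the share of higher genes among those called in KMS-11/Cfz was 66.1%, against 45.6% as deposited.

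**Figure D1:**
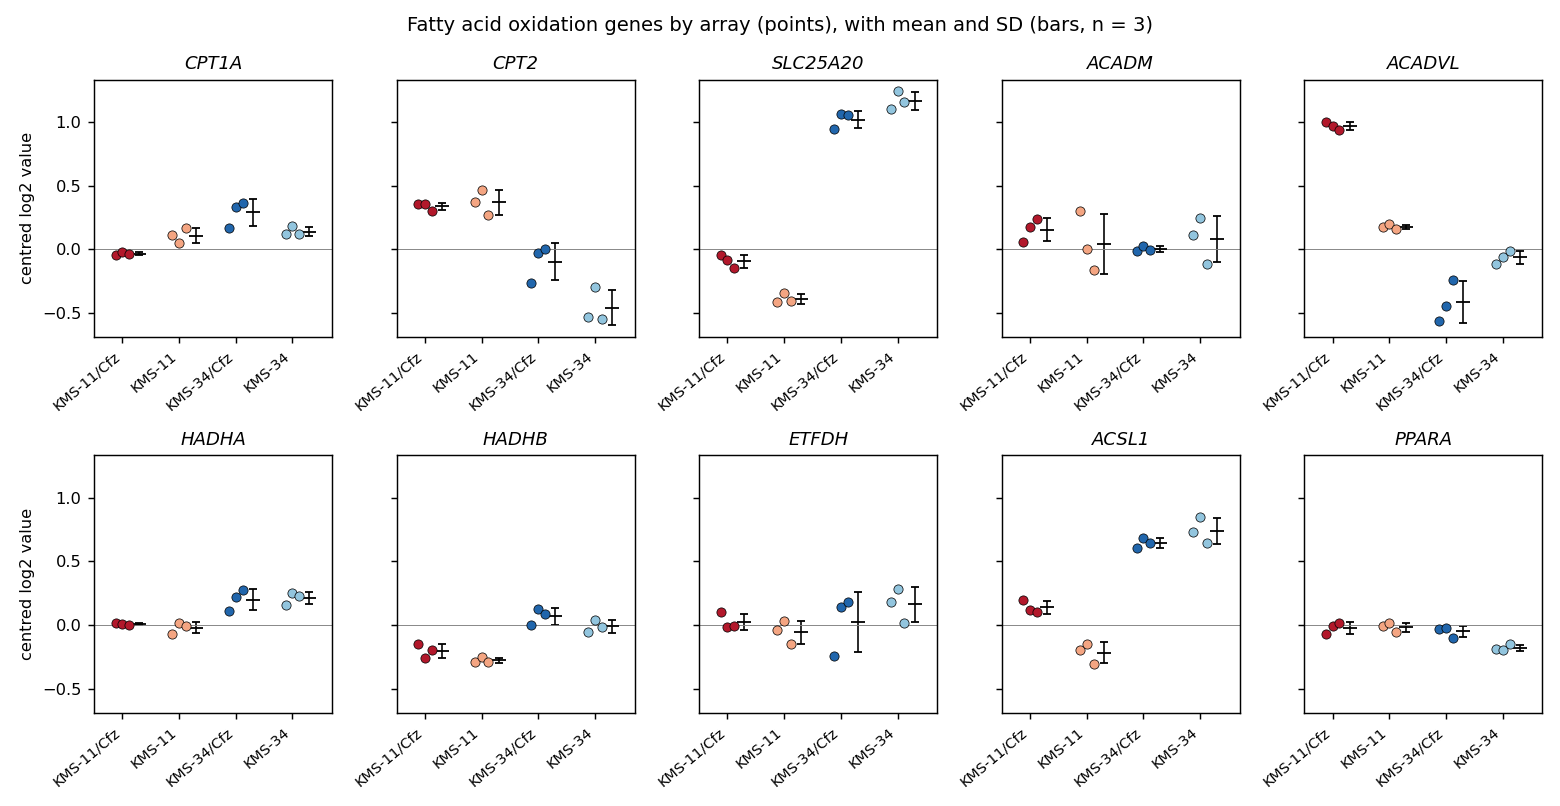
Centred log2 value (vertical axis) of each of the 10 genes on each array, with KMS-11/Cfz, KMS-11, KMS-34/Cfz and KMS-34 along the horizontal axis; points are arrays, bars the mean and SD of 3. ACADVL stands highest in KMS-11/Cfz (0.94 to 1.00) and lowest in KMS-34/Cfz (-0.56 to -0.24), while SLC25A20 and ACSL1 separate the lines.

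ACADVL encodes very long-chain acyl-CoA dehydrogenase, which opens the first round of oxidation of long chains. Its values were 1.00, 0.97 and 0.94 in KMS-11/Cfz, against 0.18, 0.20 and 0.16 in KMS-11. They were -0.56, -0.44 and -0.24 in KMS-34/Cfz, against -0.11, -0.060 and -0.016 in KMS-34. Every resistant array lay above every parental array in the KMS-11 line and below every parental array in the KMS-34 line. The change was 0.79 (SE 0.075, adjusted p = 5.347e-05, 1.73-fold) in KMS-11/Cfz, the 26th largest rise of 19775 genes. The KMS-34/Cfz change was -0.35 (SE 0.075, adjusted p = 0.008679), or 0.784 of the parental level. The difference between these changes, KMS-34 line minus KMS-11 line, was -1.14 (SE 0.11, adjusted p = 3.428e-05). ACADVL rests on 1 probe set, which passed over all 54613 probe sets in both lines (adjusted p = 0.0001699 and 0.02031). With each line fitted alone, its adjusted p in KMS-34/Cfz was 0.08682. Without KMS-34/Cfz replicate 1, the lowest of its group, ACADVL was still called in KMS-34/Cfz.

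ACADM, the medium-chain dehydrogenase that takes over as chains shorten, passed in neither line. Its change was 0.11 in KMS-11/Cfz (95% interval -0.13 to 0.35), while in KMS-34/Cfz it was -0.078 (-0.32 to 0.16). Its arrays stood at 0.056, 0.18 and 0.24 in KMS-11/Cfz, against a wide spread of 0.30, 0.0010 and -0.16 in KMS-11. The groups overlapped in both lines.

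Of the activation and transport steps, ACSL1 had values of 0.20, 0.12 and 0.10 in KMS-11/Cfz, against -0.20, -0.15 and -0.31 in KMS-11. In the other line the values were 0.61, 0.68 and 0.64 in KMS-34/Cfz, against 0.73, 0.85 and 0.64 in KMS-34. The groups did not overlap in the KMS-11 line and overlapped in the KMS-34 line. KMS-11/Cfz changed by 0.36 (SE 0.069, adjusted p = 0.01039, 1.28-fold), while KMS-34/Cfz changed by -0.096 (adjusted p = 0.4939). The changes differed between the lines by -0.45 (SE 0.097, adjusted p = 0.01365). Its 2 probe sets gave 0.36 and 0.36 in KMS-11/Cfz, each missing the threshold over all probe sets (adjusted p = 0.131 and 0.05747). The call was lost without KMS-11/Cfz replicate 1 (0.06707) or KMS-11 replicate 3 (0.05984). Without _s_at probe sets, which leaves 1 for ACSL1, neither the KMS-11/Cfz change (0.08861) nor the difference between the lines (0.1037) passed. After cyclic loess the KMS-34/Cfz change was -0.23 (0.04895).

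SLC25A20, the carnitine-acylcarnitine carrier, had values of -0.044, -0.086 and -0.15 in KMS-11/Cfz, against -0.41, -0.34 and -0.41 in KMS-11. In the other line they were 0.94, 1.06 and 1.05 in KMS-34/Cfz, against 1.11, 1.24 and 1.15 in KMS-34. Resistant arrays lay above the parental ones in the KMS-11 line and below them in the KMS-34 line. KMS-11/Cfz changed by 0.29 (SE 0.062, adjusted p = 0.0183, 1.23-fold), while KMS-34/Cfz changed by -0.15 (adjusted p = 0.1787), a difference between the lines of -0.44 (SE 0.088, adjusted p = 0.008973). Its single probe set missed the threshold over all probe sets (adjusted p = 0.06494). Without KMS-11/Cfz replicate 1 or 2, or KMS-11 replicate 1 or 3, the adjusted p was 0.07772 to 0.1054. After cyclic loess the KMS-34/Cfz change was -0.35 (0.01864).

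CPT2, the inner-membrane transferase, had values of 0.35, 0.35 and 0.30 in KMS-11/Cfz, against 0.37, 0.47 and 0.27 in KMS-11. It had -0.26, -0.029 and 0.0040 in KMS-34/Cfz, against -0.53, -0.30 and -0.54 in KMS-34. All KMS-34/Cfz arrays lay above all KMS-34 arrays, and the KMS-11 groups overlapped. The change was 0.36 (SE 0.087, adjusted p = 0.01752, 1.28-fold) in KMS-34/Cfz, while in KMS-11/Cfz it was -0.032 (95% interval -0.22 to 0.16). The difference between the lines, 0.39, missed the threshold (adjusted p = 0.08309) and passed without KMS-34/Cfz replicate 1 (0.01717). The KMS-34/Cfz call was lost with the line fitted alone (0.09855) and on leaving out replicate 2 or 3 of KMS-34/Cfz, or replicate 1 or 3 of KMS-34 (0.06581 to 0.0741). The 2 CPT2 probe sets gave 0.44 and 0.28 in KMS-34/Cfz. Over all probe sets the first passed the threshold (adjusted p = 0.03834) and the second did not (0.1746).

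CPT1A, the outer-membrane transferase that malonyl-CoA inhibits, passed in neither line. Its values were -0.047, -0.023 and -0.033 in KMS-11/Cfz, all below KMS-11 at 0.11, 0.048 and 0.17. They were 0.17, 0.33 and 0.36 in KMS-34/Cfz, overlapping KMS-34 at 0.12, 0.18 and 0.12. The changes were -0.14 (adjusted p = 0.3507) and 0.15 (adjusted p = 0.1853). Without KMS-34/Cfz replicate 1 the change in that line was 0.21 (adjusted p = 0.03261), and the difference between the lines, 0.29 with all arrays (adjusted p = 0.07909), was 0.35 (0.01424). All 4 CPT1A probe sets had a negative change in KMS-11/Cfz and a positive one in KMS-34/Cfz, none past the threshold.

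HADHA and HADHB, the subunits of the trifunctional protein, lie head to head on chromosome 2 with 306 bases between them, and their 250-base windows share 194 of those bases on opposite strands. HADHA changed by 0.032 in KMS-11/Cfz (95% interval -0.098 to 0.16), while in KMS-34/Cfz it changed by -0.014 (-0.14 to 0.12). HADHB changed by 0.075 (-0.053 to 0.20) and 0.078 (-0.050 to 0.21). The groups overlapped within both lines for each subunit.

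ETFDH, which passes the electrons to ubiquinone, changed by 0.081 in KMS-11/Cfz (adjusted p = 0.8751), while in KMS-34/Cfz the change was -0.14 (0.5447). Its KMS-34/Cfz arrays were at -0.25, 0.14 and 0.18, against 0.18, 0.29 and 0.020 in KMS-34, with replicate 1 far below the others. PPARA changed by -0.0027 in KMS-11/Cfz (95% interval -0.12 to 0.12), while its KMS-34/Cfz change was 0.13 (adjusted p = 0.1922). PPARA stood at -0.030, -0.019 and -0.10 in KMS-34/Cfz, above -0.19, -0.20 and -0.15 in KMS-34. Of its 9 probe sets, 2 passed the threshold over all probe sets in KMS-34/Cfz, with changes of 0.37 (adjusted p = 0.03667) and 0.36 (adjusted p = 0.04007). The other 7 lay lower.

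**Figure D2:**
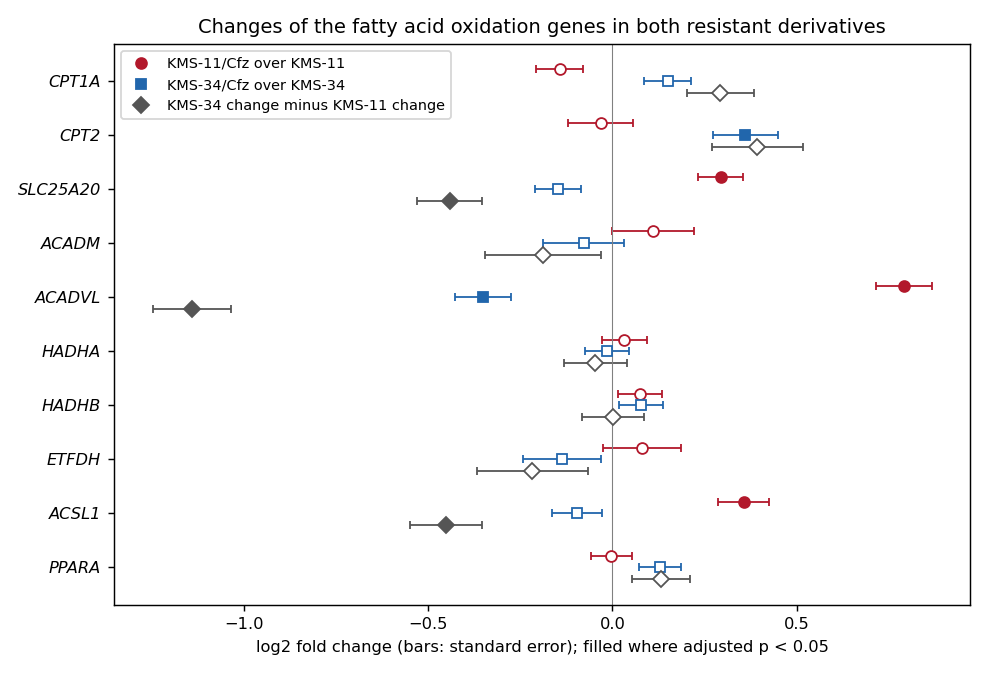
Log2 fold change (horizontal axis) of each gene with its standard error (bars), as KMS-11/Cfz over KMS-11 (circles), KMS-34/Cfz over KMS-34 (squares) and the KMS-34 change minus the KMS-11 change (diamonds); filled symbols have an adjusted p under 0.05. ACADVL, ACSL1 and SLC25A20 have filled diamonds to the left of 0, at -1.14, -0.45 and -0.44.

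Set side by side, 9 of the 10 members had changes of opposite sign in the lines, HADHB being the exception, beside 50.3% of all genes. Most of these signs belong to changes that did not pass the threshold. The difference between the lines passed for 3 of the 10 (ACADVL, ACSL1 and SLC25A20), all lower in the KMS-34 line, where 2.74% of all genes were called lower and 3.7% higher. Cyclic loess moved the higher share of those calls over all genes to 36.7%, against 57.5%. Averaged over both lines, ACADVL alone passed, with resistant cells higher by 0.22 (SE 0.053, adjusted p = 0.02216) from opposite changes, beside 3.99% of all genes called higher and 3.86% lower. That call was lost on leaving out any of 5 arrays (KMS-11/Cfz replicate 1 or 2, KMS-11 replicate 1 or 3, KMS-34 replicate 1), with an adjusted p of 0.05175 to 0.0624. Of the genes called in KMS-11/Cfz (706) or KMS-34/Cfz (1996), 82 were called in both in opposite directions and 137 in the same direction.

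**Figure D3:**
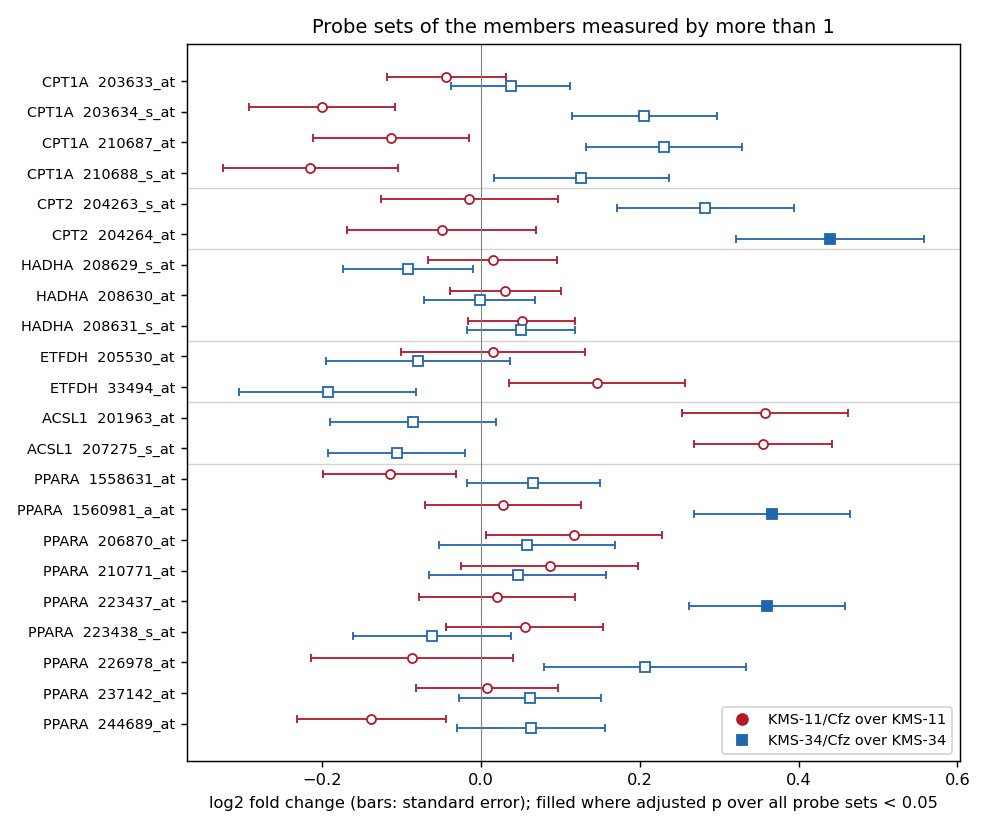
Log2 fold change with its standard error (horizontal axis) of each probe set of the 6 members measured by more than 1, as KMS-11/Cfz over KMS-11 (circles) and KMS-34/Cfz over KMS-34 (squares); filled symbols have an adjusted p under 0.05 over all 54613 probe sets. Both ACSL1 probe sets sit at 0.36 in KMS-11/Cfz, while the PPARA probe sets scatter in KMS-34/Cfz, 2 of 9 being filled.

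The parental lines also differed from each other in most of these genes. KMS-34 was higher than KMS-11 in SLC25A20 by 1.55 (SE 0.062, adjusted p = 1.149e-10, 2.93-fold) and in ACSL1 by 0.96 (SE 0.069, adjusted p = 4.552e-08, 1.94-fold). It was lower in CPT2 by 0.83 on the log2 scale (adjusted p = 2.494e-06), 1.77-fold. HADHA (0.24) and HADHB (0.27) were higher in KMS-34, and ACADVL (-0.24) and PPARA (-0.16) were lower. The ACADVL call was lost without KMS-11 replicate 2 (adjusted p = 0.05356) or KMS-34 replicate 1 (0.06198), and the PPARA call without replicate 1 or 2 of either parental line (0.07428 to 0.1073). CPT1A, ACADM and ETFDH did not pass, with differences of 0.031, 0.037 and 0.22. These 7 of 10 members (4 higher, 3 lower) stand beside 21.6% of all genes called higher and 20.5% called lower, that is 42.1% in all.

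Ordered by level across the 4 groups, SLC25A20 and ACSL1 ran KMS-34, KMS-34/Cfz, KMS-11/Cfz, KMS-11, with both KMS-34 groups above both KMS-11 groups. In each gene the upper neighbours, KMS-34/Cfz and KMS-34, did not pass the test of their difference (adjusted p = 0.1787 and 0.4939), though the SLC25A20 arrays did not overlap. CPT2 ran KMS-11, KMS-11/Cfz, KMS-34/Cfz, KMS-34, and of its neighbours only the KMS-11 groups did not pass the test (adjusted p = 0.9551). ACADVL ran KMS-11/Cfz, KMS-11, KMS-34, KMS-34/Cfz, and each neighbour differed from the next. For HADHA and HADHB the order split by line, with neither resistant group past the threshold against its parent. No neighbours in the order passed the test for CPT1A, ACADM, ETFDH or PPARA, though the arrays of KMS-11/Cfz and KMS-11 did not overlap for CPT1A, nor those of KMS-34/Cfz and KMS-34 for PPARA.

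The genes whose pattern was most like that of ACADVL, by Pearson r over the 12 arrays after the mean of each line was taken off, were NIT2 (r = 0.997), an omega-amidase, PSAP (0.984), the precursor of lysosomal activator proteins, PLPP2 (0.982), a lipid phosphatase, PRDX1 (0.981), a peroxidase, and AIFM2 (0.981), a ubiquinone reductase. NIT2 passed in both lines, at 0.57 in KMS-11/Cfz (adjusted p = 0.0003245), while in KMS-34/Cfz it was -0.26 (0.02744). PRDX1 passed in neither (0.09447 and 0.4975). Among the members, SLC25A20 (0.951) and ACSL1 (0.886) were the most like ACADVL and CPT1A (-0.654) the least. These values describe 12 arrays that share 4 group means.

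**Figure D4:**
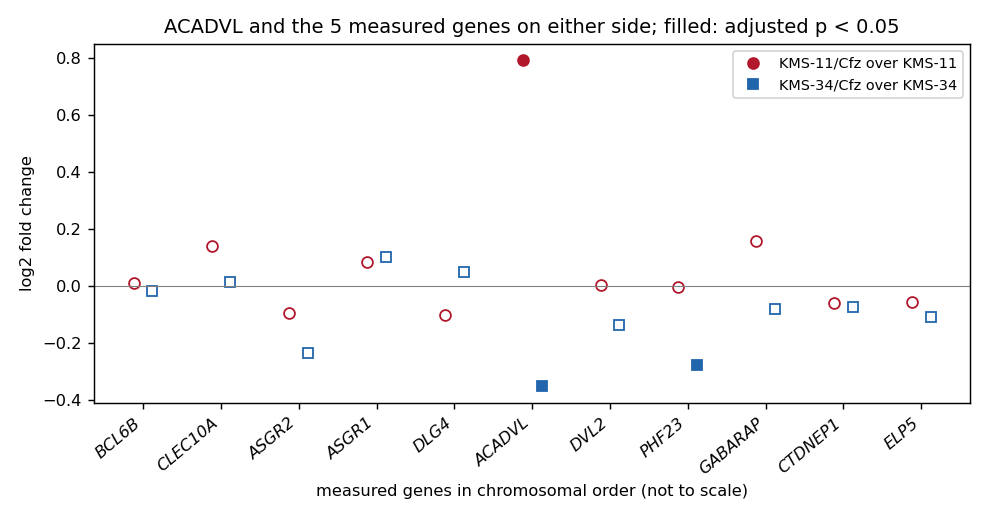
Log2 fold change (vertical axis) of ACADVL and the 5 measured genes on either side of it in chromosomal order (horizontal axis, not to scale), as KMS-11/Cfz over KMS-11 (circles) and KMS-34/Cfz over KMS-34 (squares); filled symbols have an adjusted p under 0.05. ACADVL is at 0.79 in KMS-11/Cfz, where the 10 neighbours span -0.10 to 0.16.

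On chromosome 17, ACADVL lies between DLG4 and DVL2. None of its 10 nearest measured genes passed in KMS-11/Cfz in limma's fit, with changes of -0.10 to 0.16 and 1 at an unadjusted p under 0.05. In KMS-34/Cfz, PHF23 was lower by 0.28 on the log2 scale (adjusted p = 0.03623), and 2 of the 10 had an unadjusted p under 0.05. None of the 10 neighbours of ACSL1 or of SLC25A20 passed in either line, with 1 or 2 at an unadjusted p under 0.05. Around CPT2, LRP8-DT was higher in KMS-11/Cfz (0.59, adjusted p = 0.007493) and ZYG11B in KMS-34/Cfz (0.34, adjusted p = 0.008608).

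Matched by gene symbol, 9 of the 10 members had RefSeq promoter windows, 15 in all, and ETFDH had none under its symbol. A window held 300 bases, from 250 before a start to 50 after it. Each of 6 motifs was searched on both strands over these and all 35116 windows. GC boxes (CCGCCC) were in 10 of the 15 windows, those of 8 members, beside 45.0% of all windows. The KLF core GGGNGNGG, which can overlap a GC box, was in 11 of the 15, at least 1 for each of the 9 members, beside 56.2%. The antioxidant response element TGACNNNGC was in 2 of the 15 windows, a share equal to the 13.3% of all windows. They were the inner ACADVL window (position 4 from the start) and an ACSL1 window that is not shown (position -236). The direct repeat of nuclear receptors (0.0228% of all windows), the site of estrogen-related receptors TCAAGGTCA (0.353%) and the E box CACGTG (7.26%) were in none of the 15. Members with several windows have more chances of a match than a single window has.

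The other enzymes of mitochondrial oxidation were followed as a list, of which 21 of 24 were measured. KMS-11/Cfz had 2 higher and 2 lower, while KMS-34/Cfz had 2 lower, with medians of -0.024 and -0.018. ACOT13, a mitochondrial acyl-CoA thioesterase, moved in both lines. It stood at 0.27, 0.21 and 0.25 in KMS-11/Cfz, against -0.24, -0.21 and -0.29 in KMS-11 (change 0.49, adjusted p = 0.004279). In the other line it stood at -1.27, -1.01 and -0.96 in KMS-34/Cfz, against -0.78, -0.58 and -0.61 in KMS-34 (change -0.42, adjusted p = 0.004791). As for ACADVL, its arrays separated in opposite directions, with a difference between lines of -0.91 (adjusted p = 0.0004525). ETFB, a subunit of the flavoprotein that feeds ETFDH, was higher in KMS-11/Cfz (0.35, adjusted p = 0.03861), and ACADSB, a short branched-chain dehydrogenase, was lower (-0.24, adjusted p = 0.03744). Leaving out any 1 of the 6 arrays of the KMS-11 line ended both calls. Over all 12 arrays left out in turn, ETFB was not called in 8 fits and ACADSB in 7, and neither was called after cyclic loess. ACSM3, a medium-chain acyl-CoA synthetase, was lower in both derivatives, with changes of -0.52 for KMS-11/Cfz (adjusted p = 0.003423) and -0.33 for KMS-34/Cfz (0.02519).

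Of 20 measured genes of fatty acid uptake and activation, 1 passed in KMS-11/Cfz and none in KMS-34/Cfz (3 at an unadjusted p under 0.05), with medians of -0.045 and -0.078. The 1 was SLC27A2, a transporter and very long-chain acyl-CoA synthetase, at 0.44, 0.62 and 0.53 in KMS-11/Cfz, against a range of 1.39 to 1.64 over the 3 KMS-11 arrays. The groups did not overlap. It fell by 0.98 on the log2 scale (adjusted p = 2.075e-05), with a difference between lines of 0.89 (adjusted p = 0.0005822). Its direction in KMS-11/Cfz was opposite to that of the synthetase ACSL1.

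Peroxisomes shorten very long and branched chains that mitochondria cannot take. Of 16 measured peroxisomal genes, none passed in KMS-11/Cfz (1 at an unadjusted p under 0.05) and 3 were higher in KMS-34/Cfz, with medians of 0.022 and 0.045. PHYH, which opens the breakdown of phytanic acid, stood at -0.12, -0.17 and 0.0059 in KMS-34/Cfz, against -0.80, -0.63 and -0.73 in KMS-34, a change of 0.63 (adjusted p = 7.87e-05, 1.54-fold). ACOT8, a peroxisomal thioesterase, was higher by 0.56 (adjusted p = 0.0002052, 1.48-fold), and PEX7, the receptor that imports PHYH, by 0.35 (adjusted p = 0.003355). All 3 came from the line in which ACADVL was lower.

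Of 22 measured PPAR receptors, partners and energy sensors, none passed in KMS-11/Cfz (2 at an unadjusted p under 0.05), and in KMS-34/Cfz 2 were higher and 1 lower, with medians of 0.041 and -0.0060. RXRA, the partner with which PPARA binds DNA, was higher in KMS-34/Cfz (0.38, adjusted p = 0.01107), as was the corepressor NRIP1 (0.69, adjusted p = 0.001525), while TFAM, which maintains mitochondrial DNA, was lower (-0.33, adjusted p = 0.02208). Of 17 other measured PPARA targets, none passed in KMS-11/Cfz (1 at an unadjusted p under 0.05). In KMS-34/Cfz KLF10 was higher (0.33, adjusted p = 0.01954), and the lipid droplet coat gene PLIN2 (-0.22, adjusted p = 0.04537) and TXNIP (-0.44, adjusted p = 0.00979), which restrains glucose uptake, were lower, with list medians of 0.016 and -0.051 in the 2 derivatives. PLIN2 was not called in 10 of the 12 fits with 1 array left out, nor with array medians aligned or after cyclic loess. TFAM was not called in 2 of those 12 fits (those lacking replicate 1 of KMS-34/Cfz, or replicate 2 of KMS-34) and KLF10 in 1 (without KMS-34 replicate 3). With the KMS-34 line fitted alone, ACOT13, ACSM3, RXRA, TFAM, PLIN2 and KLF10 were not called in it. ACSM3 was also not called there without KMS-34 replicate 2, ACOT8 after cyclic loess, and PEX7 with its probe set of largest variance. Without _x_at and _s_at probe sets, NRIP1, RXRA, TFAM, TXNIP, KLF10 and PEX7 were not among the genes called in KMS-34/Cfz. That setting tested 17098 genes against 19775, so some of these may have had no probe set left. The genes called in these 5 lists are read beside the shares over all genes given above.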

How the data were processed

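RNA of 12 samples, 3 in each of 4 groups, was hybridised to Affymetrix U133 Plus 2.0 arrays. The deposited table holds log2 values that the authors obtained with RMA, per the labels, and centred per probe set. The centre is not the median of these 12 arrays: 6.4% of probe sets have a median of 0. Depth has no meaning here, and the number of arrays limits the precision. Of 54613 probe sets, 41091 name 1 gene in the platform annotation, 1801 several and 11721 none. A gene's value was the mean of the probe sets naming it alone. No probe set was filtered as dim, since centred values hold no brightness. One limma fit (version 3.58.1, R 4.3.3) over all arrays gave each group a mean, with Benjamini-Hochberg adjustment over 19775 genes and a threshold of 0.05. In simulated data with 100 changed genes, 73% and 72% of changes of 0.5 were recovered in the KMS-11 and KMS-34 lines, with 12 and 10 false calls. Within a line, every called member change but that of ACADVL in KMS-11/Cfz was smaller than 0.5. Recovery of changes that small was not tested. The named genes were the 10 members, up to 4 called genes per list and line with the largest change, and the 5 most like ACADVL. The members were given by name, and how they were picked is not stated. The other lists were chosen with earlier results of these data known. Alternatives were other scalings, probe set rules, variance models, a replicate block, a threshold of 0.01 and leaving out each array.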

Additional observations from a re-analysis of the deposited data

Results flagged for a closer look

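The changes of 3 members differed between the lines in the test of the difference itself, taken as the KMS-34/Cfz change minus the KMS-11/Cfz change. The difference was -1.142 for ACADVL, which was called in both lines with opposite signs. It was -0.4521 for ACSL1 and -0.4411 for SLC25A20, each higher in KMS-11/Cfz and not past the threshold in KMS-34/Cfz.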

How the results depend on the processing

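No value of a member called with all arrays changed direction under any alternative: of 357 such values, 322 kept their call and 35 lost it. Of 763 values of members not called, 18 passed under an alternative and 43 changed sign. The members called in KMS-11/Cfz numbered 3, and 1 at an adjusted p under 0.01. Those called in KMS-34/Cfz numbered 2, with 0 when each line was fitted alone, 4 after cyclic loess, 4 with array weights and 1 at 0.01. The mean of both lines gave 1, with 4 under array weights and 0 at 0.01, and the difference between the lines 3, with 5 under array weights. The array weights stopped short of their convergence tolerance, and called 2034 genes in KMS-11/Cfz (706 with equal weights), while in KMS-34/Cfz they called 5112 (1996). With each line fitted alone 1374 and 754 were called, at 0.01 302 and 1022, and after cyclic loess 859 and 2068. In the mean and the difference, array weights called 19.9% and 20.5% of all genes, against 7.85% and 6.44% with equal weights. At 0.01 the mean had 3.56% of all genes called. The cause of these differences was not tested.

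Leaving out 1 array at a time gave 1 to 3 members called in KMS-11/Cfz, 1 to 3 in KMS-34/Cfz, 0 to 2 in the mean, 3 to 5 in the difference and 5 to 8 between the parental lines. Over all genes those fits called 1.66% to 5.4% in KMS-11/Cfz, 6.78% to 13.7% in KMS-34/Cfz and 5.1% to 10.7% in the mean. They called 3.96% to 9.79% in the difference and 38.1% to 45.3% between the parental lines. Leaving out replicate 1 of both KMS-34/Cfz and KMS-34 together, chosen after seeing the data, gave 5 in the difference, adding CPT1A and CPT2. That fit called 8.39% of all genes in the difference, against 6.44% with all arrays.

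In the other lists, calls in KMS-11/Cfz were 4 among mitochondrial enzymes, with 2 under cyclic loess, the probe set of largest variance, without _x_at and _s_at probe sets, and at 0.01, and 6 with array weights. Uptake gave 1, with 2 for each line alone, array weights and without both replicate 1 arrays. Array weights gave 1 each among peroxisomal, PPAR and target genes (0 with equal weights), and each line alone 1 target. In KMS-34/Cfz, array weights gave 10 mitochondrial, 3 uptake, 8 peroxisomal and 5 PPAR genes, against 2, 0, 3 and 3. Mitochondrial genes gave 0 for the line alone, 4 with the largest variance and 1 at 0.01. Uptake gave 3 under cyclic loess, 2 with the largest variance and 1 without both replicate 1 arrays. PPAR genes gave 1 for the line alone, 0 without _x_at and _s_at probe sets and 1 at 0.01, and targets 1 under each of these 3, against 3. Leaving out 1 array gave 2 to 4 mitochondrial genes in KMS-11/Cfz and 1 to 4 in KMS-34/Cfz, 0 to 1 uptake genes in KMS-34/Cfz, and 0 to 1 targets in KMS-11/Cfz and 1 to 3 in KMS-34/Cfz.

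Whether same-numbered arrays pair was left unsettled. The correlation of their deviations was -0.009 to 0.129 in the KMS-11 line and 0.046 to 0.561 in the KMS-34 line. In both lines together, 4 of 6 resistant arrays correlated best with their own number. In the KMS-34 line replicates 1 (0.561) and 2 (0.374) did so, while resistant replicate 3 was closest to parental replicate 2 (0.438). Deviations from a mean of 3 arrays are tied to each other, so these correlations cannot decide the question. With the replicate number as a block, 3 members were called in KMS-11/Cfz, 2 in KMS-34/Cfz, 1 in the mean, 3 in the difference and 7 between the parental lines, and 720 and 2094 genes in all.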
